A study of Mus musculus with 7 samples.

Results

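Intermediate filament genes were examined in 10 rows of a gene count table of 55484 rows, taken by symbol alone: Vim, Des, Gfap, Nes, Synm, Krt7, Krt8, Krt18, Krt19 and Plec. The table compares mouse embryonic fibroblasts (MEFs), cells grown from the embryo body, with mouse embryonic stem cells (mESCs), the pluripotent cells of the early embryo. It holds 4 MEF and 3 mESC libraries of RNA from cells on a C57/Bl6 background, without any transgene, deletion or treatment in the labels. The study sorted Thy1+ MEFs and Thy1-/Ssea1+/Epcam+ mESCs for its chromatin assay, and whether the cells of the RNA libraries were sorted likewise is not stated. The RNA was primed at the poly(A) tail and tagged with molecular identifiers, so that reads come from the 3′ end of transcripts and copies of 1 molecule could be collapsed. The labels carry an extraction text that describes blood stem cells, while the sample names and the marker genes given below are those of MEFs and mESCs. The MEF libraries held 11441278, 7312679, 9176467 and 6528643 counts, and the mESC libraries 8193825, 8057985 and 7462710 counts. Values of single libraries are given in this order throughout, and libraries are named by these totals.

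Intermediate filaments are rope-like polymers of the cytoplasm that give cells mechanical strength. Vimentin, desmin and GFAP (type III proteins) can assemble alone, whereas keratins assemble only as pairs of a type I and a type II chain, and nestin and synemin co-assemble with other filament proteins. Vimentin is the common filament of fibroblasts and other mesenchymal cells, the keratins of simple epithelia are Krt8 and Krt18 with Krt7 and Krt19, and plectin, the product of Plec, links filaments to actin, microtubules and adhesion sites.

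Counts were expressed as CPM (counts scaled to a common library size) on sizes corrected by edgeR's TMM method, and 16580 of the 55484 rows had enough counts for a test. Of these, 7938 differed between mESCs and MEFs (47.9%), with 3785 higher in mESCs (22.8%) and 4153 lower (25.0%), at an adjusted p (Benjamini-Hochberg, over all genes tested) under 0.05 from the quasi-likelihood test of edgeR. Scaling by library size alone moved the median log2 fold change (log2FC, mESC over MEF) over all genes from 0.04 to 0.32 and the split to 5180 higher and 3345 lower. The 8 pluripotency markers were all higher in mESCs, with summed levels of 39.8 to 45.3 CPM in MEFs and 2937 to 3211 CPM in mESCs. The 8 fibroblast markers were all lower in mESCs, with summed levels of 22621 to 39016 CPM in MEFs and 326 to 393 CPM in mESCs, and Thy1 itself was at 2.02% of its MEF level in mESCs. Endothelial markers (1 of 3 tested higher, summed 9.40 to 13.1 CPM in MEFs and 25.3 to 44.3 CPM in mESCs) and blood markers (2 of 3 tested lower, 17.1 to 54.5 and 10.8 to 21.6 CPM) were low in both. In bulk RNA, fewer cells that express a gene and less of its RNA per cell cannot be told apart. The study calls its RNA data biological replicates and counts fewer MEF replicates than the libraries used here, without saying which were left out. The labels do not say whether libraries of a cell type came from separate cultures, and p-values measure the spread between these libraries, which may in part be technical.

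The members are spread over 6 chromosomes of GRCm38 (mm10), and Krt8 and Krt18 are neighbours. Krt8 lies on the minus strand of chromosome 15 at 101996698 to 102004482 and Krt18 on the plus strand at 102028180 to 102032027. Both are transcribed away from the 23697 bases between them. In RefSeq's table for GRCm38.p6, 8 members had a window of 250 bases before the start that RefSeq gives. By the GENCODE annotation the windows of Vim, Krt7 and Gfap lie wholly inside the gene. Those of Krt8, Krt18 and Nes lie partly inside it. The sequences shown are those of Nes and Krt18, which fell in mESCs, and of Krt8 and Des, which did not pass the test, so that the upstream DNA of genes with unlike outcomes can be read beside each other. Each runs 5′ to 3′ on the gene's strand up to the RefSeq start or the first annotated exon base, whichever comes first. Their places are chr3:87970843-87971077 (Nes, plus strand), chr15:102027966-102028179 (Krt18, plus), chr15:102004483-102004592 (Krt8, minus) and chr1:75360042-75360291 (Des, plus). Capitals mark the GC box, searched as GGGCGG on both strands.
Nes: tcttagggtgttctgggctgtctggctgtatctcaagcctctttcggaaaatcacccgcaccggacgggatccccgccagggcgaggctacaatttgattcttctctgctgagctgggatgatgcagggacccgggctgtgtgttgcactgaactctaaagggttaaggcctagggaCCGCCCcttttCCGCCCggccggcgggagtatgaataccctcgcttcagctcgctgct
Krt18: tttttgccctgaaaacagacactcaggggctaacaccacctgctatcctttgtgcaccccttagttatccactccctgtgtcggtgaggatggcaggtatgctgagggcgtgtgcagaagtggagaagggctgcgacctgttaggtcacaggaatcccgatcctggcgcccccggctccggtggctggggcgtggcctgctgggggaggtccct
Krt8: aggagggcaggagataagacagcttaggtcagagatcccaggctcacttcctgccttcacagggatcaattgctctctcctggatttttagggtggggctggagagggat
Des: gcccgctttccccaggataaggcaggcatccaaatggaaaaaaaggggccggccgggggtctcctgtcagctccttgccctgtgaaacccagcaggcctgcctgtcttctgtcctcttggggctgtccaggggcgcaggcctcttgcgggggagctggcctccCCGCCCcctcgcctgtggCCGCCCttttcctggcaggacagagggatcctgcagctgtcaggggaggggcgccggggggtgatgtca
Des held 2 GC boxes, 87 and 69 bases before the RefSeq start, and Nes held 2, at 73 and 62 bases. Neither Krt8 nor Krt18 held one in its whole window of 250 bases. A GC box was in 32.7% of the 32851 windows of this length, so having one does not set Des or Nes apart. TATAAA was in 12.4% of windows, CCAAT in 33.8% and TGANTCA, the letters of the AP-1 site, in 6.75%, and none of these was in the 4 windows. Among the windows not shown, Krt7 held 4 GC boxes, Vim held 1 TATAAA and 2 CCAAT, and Synm held 1 CCAAT. Gfap held none of the motifs. Windows of Des, Nes, Krt18 and Krt8 were 67.2%, 58.8%, 60.4% and 58.0% G or C, beside a median of 52.4% over all windows. A match is a description of the letters and says nothing of binding.

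Of the 10 members, 9 could be tested and 5 passed the test, all of them lower in mESCs: Vim, Nes, Plec, Krt19 and Krt18. Across all genes tested, 25.0% were called lower. None of the 9 was called higher by edgeR, by DESeq2 or by limma with voom, and 0 were higher at an unadjusted p under 0.05 in edgeR. Every mESC library lay below every MEF library for these 5 genes, and the libraries of the other 5 members overlapped. Libraries did not overlap in 52.1% of all genes tested, with 4347 of 16580 genes lower and 4290 higher in mESCs. The median log2FC of the 9 was -1.49, beside 0.04 over all genes tested. Both a mesenchymal filament gene and genes of simple epithelial filaments were therefore among those that fell, as the plot of levels by library shows.

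**Figure D1:**
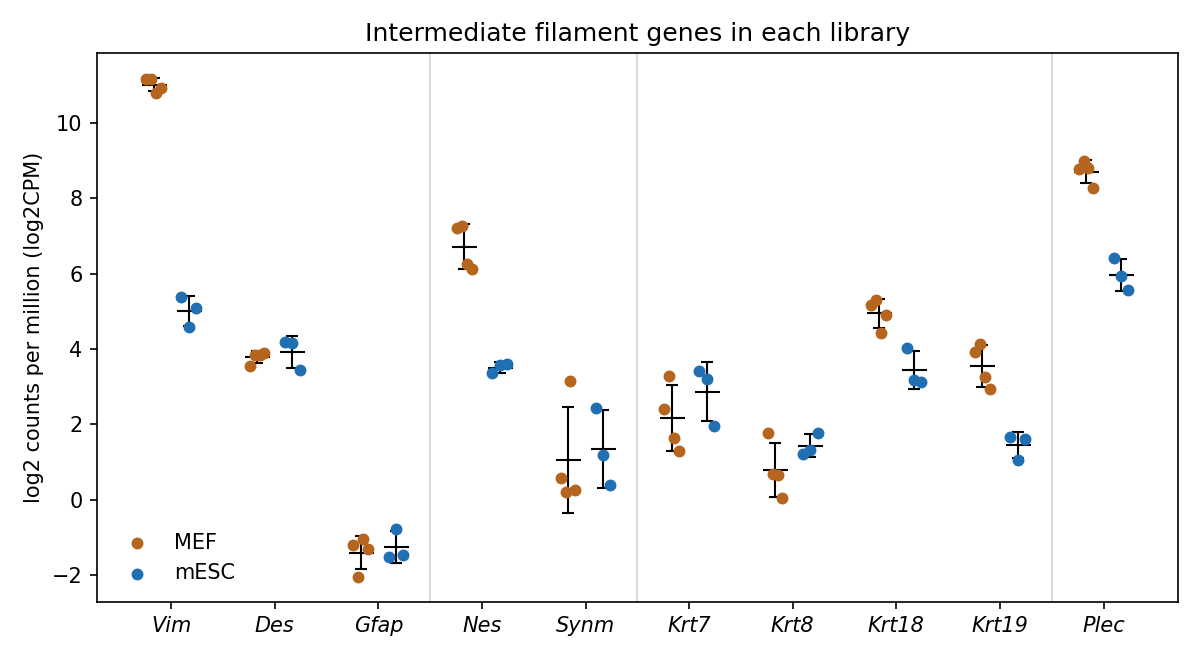
Level of each member in every library as log2CPM (prior count of 2), with MEF libraries in brown and mESC libraries in blue; long bars are means and whiskers are the SD of 4 MEF and 3 mESC libraries, and grey lines separate type III, type IV, keratin and linker genes. Vim, Nes, Krt18, Krt19 and Plec lie lower in all 3 mESC libraries than in any MEF library, while Des, Synm, Krt7 and Krt8 overlap and Gfap is at the floor of counting.

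Vim showed the largest difference among the members. It encodes vimentin, the main filament protein of fibroblasts, and lies on chromosome 2 at 13573927 to 13582826. Its level was 2303, 2282, 1780 and 1965 CPM in the MEF libraries and 41.5, 23.7 and 33.5 CPM in the mESC libraries. All MEF libraries were thus close together and far above the mESC libraries, in which Vim was still read 209 to 383 times. The means were 2082 ± 254 CPM in MEFs (SD, n = 4) and 32.9 ± 8.90 CPM in mESCs (SD, n = 3), so that mESCs held 1.58% of the MEF level. This gave a log2FC of -5.98 (standard error 0.231, 95% interval -6.49 to -5.47, adjusted p = 2.65e-08, edgeR). Fibroblast markers moved the same way, from 0.452% to 41.0% of the MEF level in mESCs, and their part in the result was not tested.

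Des, on chromosome 1 at 75360329 to 75368579, encodes desmin, the filament protein of muscle. Des stood at 11.4, 14.2, 14.1 and 14.6 CPM in the MEF libraries and at 18.0, 17.6 and 10.6 CPM in the mESC libraries. The mESC library of 7462710 counts was the lowest of all 7 and the other mESC libraries were the highest, so the groups overlapped. The means were 13.6 ± 1.47 CPM (SD, n = 4) and 15.4 ± 4.15 CPM (SD, n = 3). A log2FC of 0.18 (95% interval -0.39 to 0.76) did not pass the test (adjusted p = 0.600, edgeR). Smooth muscle and myofibroblast markers, by contrast with Des, were lower in mESCs in 6 of 6 genes, with summed levels of 6049 to 7550 CPM in MEFs and 40.5 to 52.6 CPM in mESCs. Of 7 skeletal muscle markers, 4 could be tested and 1 was lower. Of the exon bases of Des, 5.86% overlap the antisense gene Gm15179, and the strand setting of the counting is not given in the sources used here.

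Gfap encodes the filament protein of astrocytes and lies on chromosome 11 at 102887336 to 102900912. It was read 2, 0, 2 and 1 times in the MEF libraries and 1, 3 and 1 times in the mESC libraries. No library was above 3 counts, the floor used here, which corresponds to 0.288 to 0.477 CPM and covers counting error only. Gfap did not enter the test, and a difference was not detectable at this depth. Of 7 glial markers, 4 could be tested, with 1 higher and 1 lower in mESCs and summed levels of 28.7 to 54.9 CPM in MEFs and 34.2 to 39.0 CPM in mESCs.

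Nes, on chromosome 3 at 87971078 to 87980451, encodes nestin, a type IV protein of neural progenitors and of many dividing cells. Its level was 149, 152, 76.8 and 69.7 CPM in the MEF libraries and 9.97, 11.6 and 11.9 CPM in the mESC libraries. The MEF libraries were uneven and the mESC libraries close together, yet the lowest MEF library was well above the highest mESC library. The means were 112 ± 44.8 CPM in MEFs (SD, n = 4) and 11.2 ± 1.04 CPM in mESCs (SD, n = 3), and mESCs held 9.97% of the MEF level. Its log2FC was -3.33 (standard error 0.327, 95% interval -4.05 to -2.60, adjusted p = 1.43e-05, edgeR). Markers of neural progenitors and neurons did not move as a block: of 6 listed, 5 were tested, 3 were higher and 1 was lower in mESCs. Their summed level was 79.0 to 121 CPM in MEFs and 77.5 to 97.9 CPM in mESCs.

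Synm, on chromosome 7 at 67730160 to 67759742, encodes synemin, which joins desmin and vimentin filaments to other structures. It was low in most libraries, with 1.25, 0.915, 8.63 and 0.954 CPM in the MEF libraries and 5.20, 2.05 and 1.06 CPM in the mESC libraries. The MEF library of 9176467 counts stood apart with 72 counts, against 6 to 13 in the other MEF libraries. The fitted log2FC of -0.09 (standard error 0.862, 95% interval -2.00 to 1.81) did not pass the test (adjusted p = 0.939, edgeR). Without that MEF library Synm had too few counts to be tested, and without the mESC library of 7462710 counts the fitted value was 0.29, so the direction of Synm is not settled by these libraries. Its exons overlap those of Ttc23 and Gm45102 on the other strand in 6.43% of their bases.

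The 4 keratins of simple epithelia did not move together. Krt18 and Krt19, both type I chains, fell in mESCs, while the type II chains Krt7 and Krt8 had fitted values above 0 that did not pass the test. Krt18 stood at 35.7, 39.3, 21.1 and 29.6 CPM in the MEF libraries and at 16.1, 8.75 and 8.49 CPM in the mESC libraries. The groups were separate, with a gap between the lowest MEF library and the mESC library of 8193825 counts. Its means were 31.4 ± 7.98 CPM (SD, n = 4) and 11.1 ± 4.35 CPM (SD, n = 3). The fitted log2FC was -1.49 (standard error 0.310, 95% interval -2.18 to -0.81, adjusted p = 0.00233, edgeR). Against a fold change of 2 in place of 1, Krt18 no longer passed (adjusted p = 0.0746, edgeR).

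Krt19, a type I keratin that has no tail domain, lies on chromosome 11 at 100140810 to 100148665. It stood at 14.8, 17.4, 9.23 and 7.47 CPM in the MEF libraries and at 2.93, 1.82 and 2.83 CPM in the mESC libraries. Again the MEF libraries were uneven and all of them were above the mESC libraries. The means of 12.2 ± 4.64 CPM (SD, n = 4) and 2.53 ± 0.614 CPM (SD, n = 3) put mESCs at 20.7% of the MEF level. The log2FC was -2.27 (standard error 0.404, 95% interval -3.16 to -1.37, adjusted p = 0.000909, edgeR).

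Krt8, the type II partner of Krt18, was read 33, 9, 11 and 5 times in the MEF libraries and 19, 20 and 27 times in the mESC libraries. This gave 3.17, 1.37, 1.32 and 0.795 CPM in MEFs and 2.06, 2.27 and 3.19 CPM in mESCs. The MEF library of 11441278 counts reached the level of the highest mESC library and the other 3 MEF libraries lay below all mESC libraries, so the groups overlapped through that library. The log2FC of 0.56 (standard error 0.554, 95% interval -0.67 to 1.78) did not pass the test (adjusted p = 0.447, edgeR). Without that library it was 1.08, and it did not pass either (adjusted p = 0.126, edgeR). Of the 50-base sequences of Krt8 transcripts, 26.9% also occur in the pseudogene Krt8-ps, but none of those in the last 500 bases, where 3′ reads fall. Exons of Gm36026 on the other strand overlap 5.16% of the exon bases of Krt8.

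Krt7, a type II keratin of ducts and glands, lies on chromosome 15 at 101411043 to 101430313. It stood at 5.08, 9.45, 2.88 and 2.23 CPM in the MEF libraries and at 10.5, 8.98 and 3.66 CPM in the mESC libraries. Libraries of both cell types ranged widely and overlapped. Means were 4.91 ± 3.27 CPM (SD, n = 4) and 7.72 ± 3.60 CPM (SD, n = 3). Its log2FC of 0.66 (standard error 0.534, 95% interval -0.53 to 1.84) did not pass the test (adjusted p = 0.347, edgeR). The intervals of Krt7 and Krt8 both include 0 and are wide, so neither a lack of change nor a rise was shown. Markers of surface epithelium had summed levels of 91.8 to 119 CPM in MEFs and 175 to 210 CPM in mESCs. Of these 6, 2 were higher: Cdh1 went from a mean of 3.41 to 90.4 CPM and Grhl2 from 2.36 to 9.20 CPM. Most of the rise of the sum was thus Cdh1. Trp63 went the other way, from 14.0 to 8.80 CPM, and did not pass the test, nor did Krt5, Krt14 and Esrp1. Of 6 trophectoderm markers 3 were tested, 2 were higher and 1 was lower. Of 4 mesothelium markers, 3 were tested, with 1 higher and 1 lower.

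Markers of primitive endoderm, an early embryonic epithelium that carries simple keratins and can arise in mESC cultures, moved in part with the mESC libraries. Of 7 listed, 3 were tested, with Lama1 higher and Dab2 lower in mESCs. Sox17 was read 51, 41 and 9 times and Foxa2 21, 18 and 4 times in the mESC libraries, and both were read 0 times in every MEF library. Gata4 had another order in the mESC libraries, with 18, 7 and 19 counts. The summed level of the 7 was 83.8 to 145 CPM in MEFs and 113, 61.8 and 38.3 CPM in the mESC libraries. Dab2 and Gata6, large parts of it, had means of 81.2 and 30.1 CPM in MEFs and 24.7 and 16.8 CPM in mESCs. Among the mESC libraries, that of 8193825 counts held the highest and that of 7462710 counts the lowest value of the summed level. The same was so for Krt18, Krt7, Des, Synm and Plec. Krt8 and Nes ran the other way, with their highest value in the mESC library of 7462710 counts. Vim and Krt19 were lowest in the mESC library of 8057985 counts. An order over so few libraries can be shared by genes without any link. The part of any of these cells in the keratin, Des, Synm and Plec levels was not tested.

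Plec, on chromosome 15 at 76170974 to 76232574, encodes plectin, the large linker of intermediate filaments. Its level was 440, 508, 445 and 307 CPM in the MEF libraries and 85.2, 61.0 and 47.3 CPM in the mESC libraries. No mESC library came near the lowest MEF library. The means were 425 ± 84.5 CPM in MEFs (SD, n = 4) and 64.5 ± 19.2 CPM in mESCs (SD, n = 3), and mESCs held 15.2% of the MEF level. This gave a log2FC of -2.72 (standard error 0.243, 95% interval -3.26 to -2.18, adjusted p = 7.16e-06, edgeR). The smaller fall of Plec than of Vim is shown by the plot of fold changes.

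**Figure D2:**
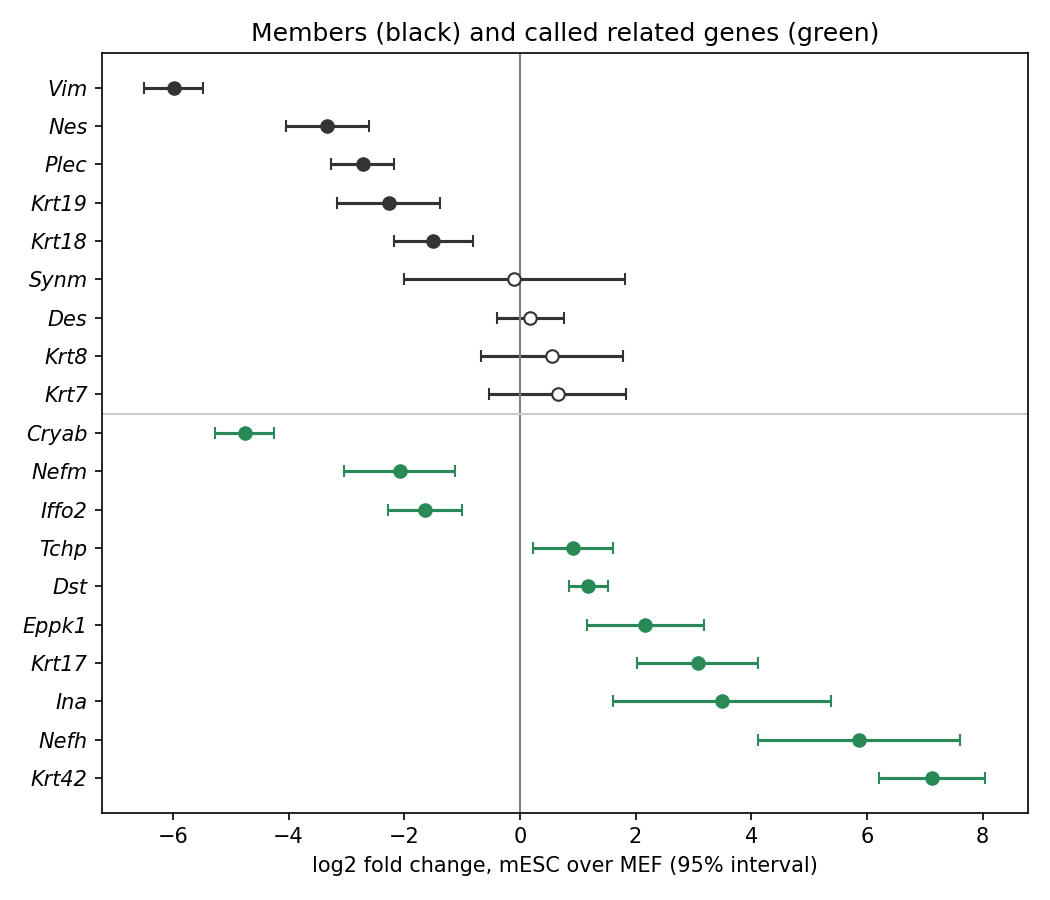
Fitted log2FC from edgeR with a 95% interval derived from its F statistic. Black marks the 9 tested members and green the called genes of a list of other filament and linker genes. Filled points passed the adjusted threshold of 0.05 and open points did not. Vim lies lowest at -5.98, the intervals of Synm, Des, Krt8 and Krt7 cross 0, and the values of Krt42 and Nefh depend on the prior count because Krt42 had at most 3 and Nefh at most 4 counts in any MEF library.

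Because scaling cancels within a library, the members were also compared as log2 ratios of counts, with 2 counts added to each gene, in 8 ratios. These set type II against type I keratins (Krt8 to Krt18), keratins of a type against each other (Krt19 to Krt18, Krt7 to Krt8), and Nes, Synm, Des, Plec and Krt8 against Vim. The exact permutation test was two-sided over 35 splits of 4 and 3 libraries, whose smallest p is 0.0286, and p-values were adjusted over the 8 ratios. The ratio of Krt8 to Krt18 was -3.42, -4.56, -3.78 and -4.75 in the MEF libraries and -2.85, -1.84 and -1.35 in the mESC libraries on the log2 scale. All mESC libraries were above all MEF libraries, although the nearest were close. The mean rose from -4.13 ± 0.63 (SD, n = 4) to -2.01 ± 0.76 (SD, n = 3), a difference of 2.11 or 4.32-fold (exact permutation test, two-sided, p = 0.0286, adjusted p = 0.0381). Thus the type II chain was read more often per read of its type I partner in mESCs. The adjusted p is under 0.05 only because the ratios to Vim, adjusted with it, also had the smallest p. Krt18 fell by itself (log2FC -1.49) and Krt8 did not pass the test, so this ratio in part restates the fall of Krt18. For Krt19 to Krt18 the difference was -0.62 (exact permutation test, p = 0.114, adjusted p = 0.131), and for Krt7 to Krt8 it was 0.09 (exact permutation test, p = 0.914, adjusted p = 0.914).

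Against Vim, every tested ratio rose in mESCs, and these 5 ratios share Vim. Vim had the lowest log2FC of the tested members (-5.98), so a rise of ratios to it follows from the levels given above. It holds even for Nes (log2FC -3.33) and Plec (-2.72), which themselves fell. The ratio of Nes to Vim, the partner with which nestin assembles, was -3.95, -3.90, -4.53 and -4.81 in the MEF libraries and -2.03, -1.02 and -1.47 in the mESC libraries. The groups were separate, with a difference of means of 2.79. The ratio of Plec to Vim was -2.39, -2.17, -2.00 and -2.68 in the MEF libraries and 1.03, 1.35 and 0.49 in the mESC libraries, a difference of 3.27. This ratio was below 0 in every MEF library and above 0 in every mESC library. The ratio of Des to Vim differed by 6.14, that of Synm to Vim by 6.26 and that of Krt8 to Vim by 6.61. For each of the 5 ratios the exact permutation test, two-sided, gave p = 0.0286 and an adjusted p of 0.0381, and the plot of ratios shows their spread. These tests largely restate the fall of Vim and are not separate results.

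**Figure D3:**
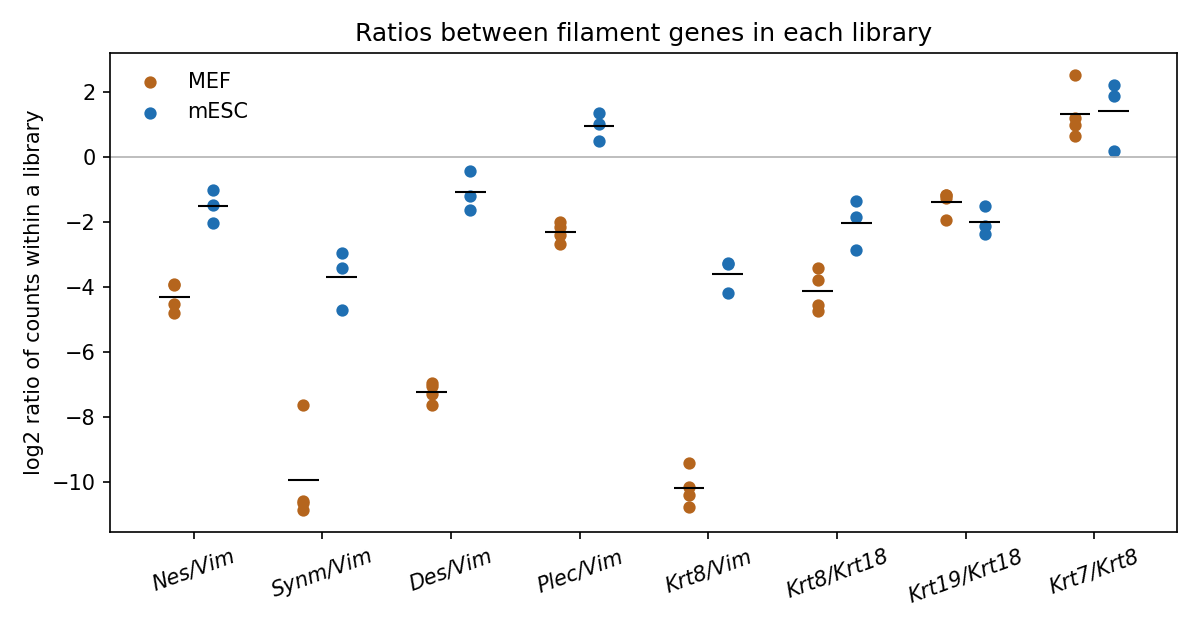
log2 ratio of the counts of 2 members within each library (2 counts added to each), with MEF libraries in brown, mESC libraries in blue and means as black bars. The first 6 ratios lie higher in all 3 mESC libraries than in any MEF library, while Krt19 to Krt18 and Krt7 to Krt8 overlap.

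Read as shares of the summed counts of the 10 members, the make-up of the filament RNA differed between the cell types. The sum itself was 2359 to 3025 CPM in MEFs and 123 to 192 CPM in mESCs, from 15077 to 30887 counts in MEF and 1040 to 1768 counts in mESC libraries. Vim made up 77.7%, 75.4%, 75.4% and 82.0% of it in the MEF libraries and 21.7%, 17.2% and 27.3% in the mESC libraries. Plec went from between 12.8% and 18.9% in MEFs to between 38.6% and 44.5% in mESCs. The 4 keratins together held 1.46% to 2.23% in MEFs and 14.8% to 16.5% in mESCs. Their larger share is not a larger level: Krt18 and Krt19 fell, Krt7 and Krt8 did not pass the test, and the sum itself was smaller in mESCs. Des with Gfap went from between 0.392% and 0.617% to between 8.75% and 13.0%, and Nes with Synm from between 2.94% and 5.07% to between 7.92% and 10.6%. The shares add to 100% and so are not independent, and they are shares of 3′ reads, not of protein. No test was run on them.

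**Figure D4:**
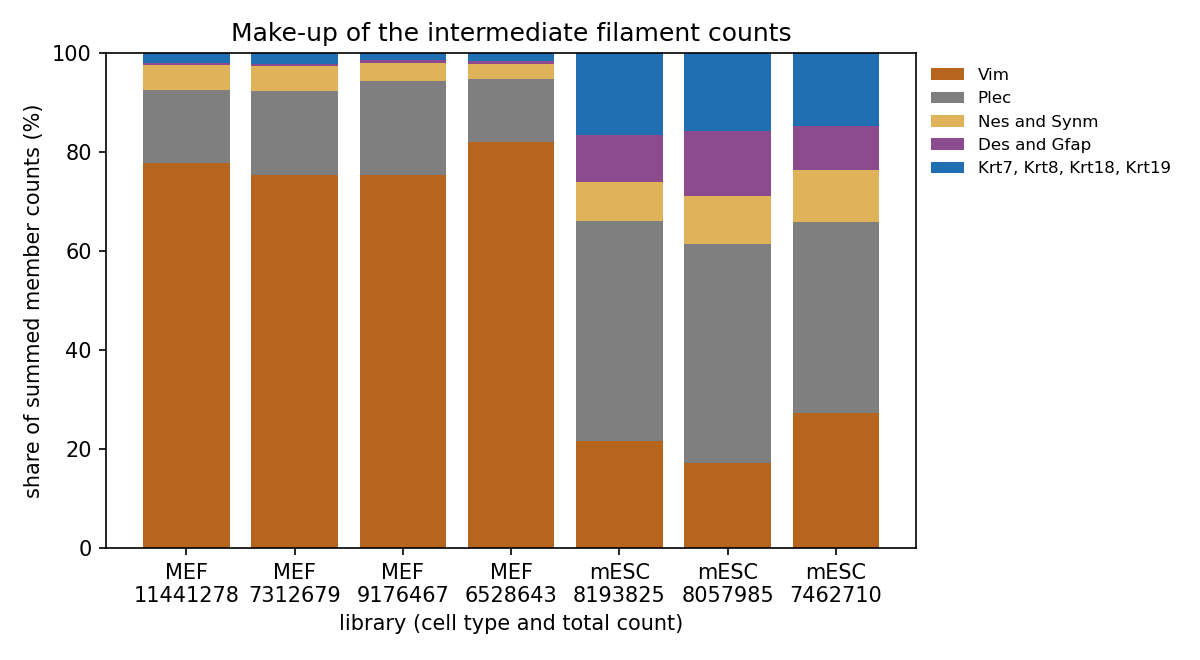
Share in percent of each group of members in the summed counts of the 10 members, 1 stacked bar for each library, named by cell type and total count. Vim fills 75.4% to 82.0% of the MEF bars and 17.2% to 27.3% of the mESC bars, where Plec fills 38.6% to 44.5%.

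Of all 54 keratin genes in the table, 15 could be tested and 4 passed, with Krt17 and Krt42 higher and Krt18 and Krt19 lower in mESCs. Over all genes tested 47.9% passed, with 22.8% higher and 25.0% lower, so keratins were not called more often than other genes. The median log2FC of the 15 was -0.00, 26 keratins had at most 3 counts in every library, and 3 of these had none. Krt42, a type I keratin, was read 3, 2, 3 and 0 times in the MEF libraries and 285, 385 and 311 times in the mESC libraries. This is at or below the floor of 3 counts in every MEF library and 30.9 to 43.7 CPM in mESCs (adjusted p = 3.63e-07, edgeR). Krt17, a type I keratin of embryonic and stressed epithelium, rose from 0.896 ± 0.498 CPM (SD, n = 4) to 7.41 ± 0.673 CPM (SD, n = 3), a log2FC of 3.08 (standard error 0.474, adjusted p = 0.000345, edgeR).

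Several keratins of stratified epithelium did not pass the test, and no test of equal level was run. Krt14, the type I chain of basal keratinocytes, had means of 40.7 ± 5.30 CPM in MEFs (SD, n = 4) and 40.7 ± 4.80 CPM in mESCs (SD, n = 3), and its type II partner Krt5 had 39.1 ± 4.39 and 36.1 ± 2.97 CPM. Krt15, of basal cells too, had 39.2 ± 2.33 and 39.4 ± 6.69 CPM. Krt10, of the layers above, had 28.5 ± 2.69 and 29.5 ± 2.50 CPM. Their log2FC values lay between -0.12 and 0.05, with 95% intervals from -0.49 to 0.44 over the 4 genes. Krt1, the type II partner of Krt10, had 4.37 ± 0.504 and 3.40 ± 0.532 CPM, with a wider interval from -1.16 to 0.44 around -0.36. Krt77 (8.71 and 7.60 CPM), Krt80 (4.21 and 2.37), Krt79 (1.52 and 2.07) and Krt20 (1.75 and 0.887) did not pass either, as the plot of keratin means shows.

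**Figure D5:**
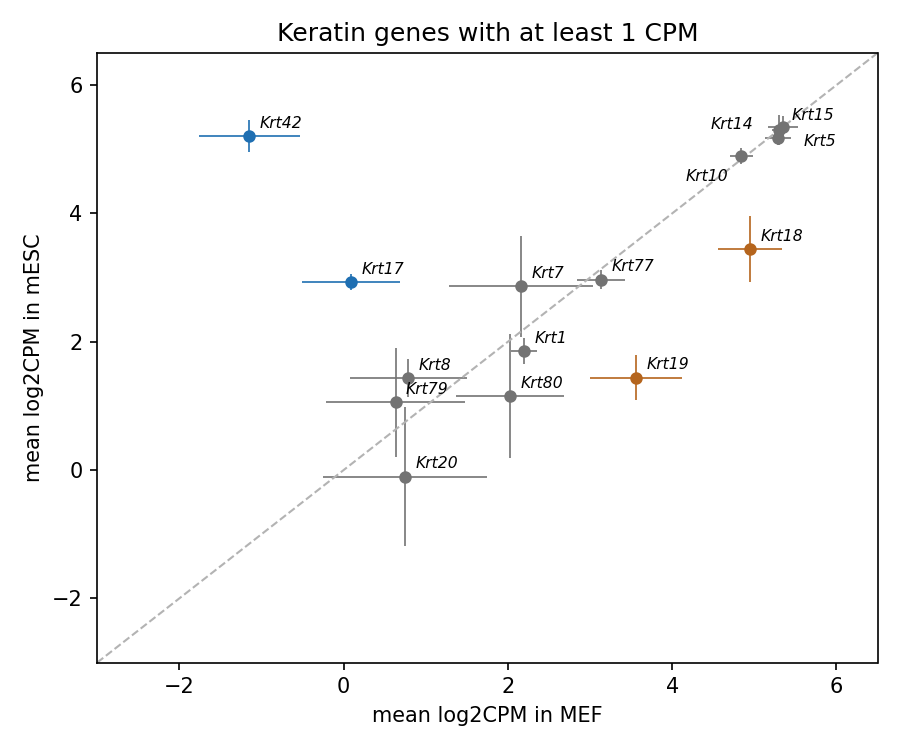
Mean log2CPM in mESC against MEF of the 15 keratin genes with a mean of at least 1 CPM in either cell type, with SD bars over 4 MEF and 3 mESC libraries and a dashed line of equal level. Krt42 and Krt17 (blue, higher in mESCs) lie above the line, Krt18 and Krt19 (brown, lower) below it, and the grey genes did not pass the test.

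A list of 35 other filament proteins, plakin linkers and desmosomal anchors served to set the members among related genes. Of these, 27 were tested and 10 passed, with 7 higher and 3 lower in mESCs and a median log2FC of 0.11. Called genes were thus 10 of 27 in this list, 5 of 9 among the members and 47.9% of all genes. Cryab, a small heat shock protein that binds desmin and vimentin filaments, fell from 77.0 ± 11.6 CPM (SD, n = 4) to 2.84 ± 0.410 CPM (SD, n = 3), a log2FC of -4.76 (standard error 0.231, adjusted p = 1.06e-07, edgeR). Iffo2, a gene of the intermediate filament orphan family, fell from 19.3 ± 1.62 to 6.20 ± 2.33 CPM (log2FC -1.64, adjusted p = 0.000890, edgeR).

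The neurofilament genes did not move together. Nefl, the light chain, had means of 11.5 and 16.4 CPM and did not pass the test (log2FC 0.51, adjusted p = 0.186, edgeR). Nefm, the medium chain, fell from 13.9 ± 4.26 to 3.27 ± 1.93 CPM, a log2FC of -2.08 (adjusted p = 0.00247, edgeR). Nefh, the heavy chain, was read 2, 4, 0 and 0 times in the MEF libraries and 76, 181 and 62 times in the mESC libraries (adjusted p = 0.000133, edgeR). Ina, the alpha-internexin gene of young neurons, rose from 1.01 ± 1.33 to 10.9 ± 2.90 CPM (log2FC 3.50, adjusted p = 0.00594, edgeR), with MEF libraries from 0 to 18 counts.

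Of 6 tested plakins other than Plec, which fell, 2 rose in mESCs and 4 did not pass the test, namely Macf1 (log2FC 0.10), Dsp (0.33), Ppl (0.11) and Evpl (0.88). Dst, the dystonin linker of filaments, rose from 75.0 ± 11.2 CPM (SD, n = 4) to 171 ± 11.8 CPM (SD, n = 3), a log2FC of 1.19 (standard error 0.156, adjusted p = 0.000111, edgeR), but did not pass against a fold change of 2 (adjusted p = 0.145). Eppk1, the epiplakin gene, rose from 4.45 ± 1.98 to 20.4 ± 10.7 CPM (log2FC 2.17, adjusted p = 0.00262, edgeR). Tchp, the keratin-binding trichoplein gene, is the remaining called gene (log2FC 0.92, adjusted p = 0.0328, edgeR) and lost its call without the mESC library of 8057985 counts (0.66, adjusted p = 0.160) and without each of the MEF libraries of 11441278, 7312679 and 6528643 counts (0.79 to 0.89, adjusted p = 0.0670 to 0.0734), as it did with no filter beyond 1 count (adjusted p = 0.0599). With scaling by library size alone, Macf1, Dsp and Evpl were called higher too.

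The genes whose pattern over the 7 libraries was most like that of Vim were Cdh2, the N-cadherin gene, Nexn and S100a6, with Pearson correlations of log2CPM of 0.9998, 0.9997 and 0.9996. Of 16579 other genes tested, 328 reached 0.99. For Krt8 these were Gm13772 (0.991), Gm8116 (0.967) and Cfap126 (0.965), and 1 gene reached 0.99. The correlations describe 7 libraries that fall into 2 cell types, so for Vim they mostly restate the difference between MEFs and mESCs, and no test was run on them.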

How the data were processed

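Reads were sorted by sample index, trimmed and aligned by the authors to mm10 (GRCm38) with STAR. After Je had collapsed reads with the same molecular identifier, featureCounts counted those mapping to a single place in exons, and the whole-number counts per gene were deposited without normalization. The sources name different versions of STAR, and the annotation release and strand setting are not given in the sources used here. Count columns name the cell type but not the sample, and each library is therefore named by its total. Column names also carry a letter, O for every MEF and Y for every mESC library. Its meaning is not stated, and what it stands for cannot be told apart from cell type. The number of unused columns of sample values was 0.

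Differential expression was computed with edgeR 4.0.16 (R 4.3.3), using TMM scaling, the filterByExpr filter and a quasi-likelihood fit of the 7 libraries with cell type as the single term. Standard errors were the absolute log2FC divided by the square root of the F statistic, and 95% intervals used these with the t distribution. The threshold was an adjusted p (Benjamini-Hochberg) of 0.05 over the 16580 genes tested. CPM were computed on TMM-scaled library sizes, log2CPM with a prior count of 2, and 3 counts were taken as the floor. Log2 ratios were compared by an exact permutation test. Limma 3.58.1 with voom, DESeq2 1.42.0, other scalings and filters, a fold change of 2, a prior count of 0.5, shares without Plec and leaving out each library in turn were alternatives. The code was tested on simulated data, in which 200 genes were given an absolute log2FC of 2. Of these, edgeR recovered 134 with 9 false calls, DESeq2 147 with 29 and voom 125 with 6. A gene that did not pass the test may therefore still differ.

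The members and lists were chosen with earlier results of these data known. Named are all members, called genes of the other filament list (up to the 6 with the largest difference in each direction, and Tchp, Nefl, Macf1, Dsp, Ppl and Evpl, which were named after their values were seen, as were the single marker genes), keratins with a mean of at least 1 CPM, and the 3 genes most alike Vim and Krt8. Coordinates are from GENCODE M21, shared sequences were counted as 50-base stretches of its transcripts, and upstream sequences are RefSeq's (GRCm38.p6).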

Additional observations from a re-analysis of the deposited data

Results flagged for a closer look

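In 5 of 37 groups of 4 MEF values that were checked, 1 library lay far from the other 3 by Dixon's criterion, which chance meets in about 1 of 20 groups. Synm stood at 8.63 CPM in the MEF library of 9176467 counts, and the log2 ratio of Synm to Vim at -7.65 in the same library. Des stood at 11.4 CPM in the MEF library of 11441278 counts, below the other MEF libraries. Krt80 stood at 7.77 CPM in the MEF library of 7312679 counts, above the others. The log2 ratio of Krt19 to Krt18 was -1.94 in the MEF library of 6528643 counts, below the others. Groups of 3 mESC libraries were not checked.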

How the results depend on the processing

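Vim, Nes, Plec and Krt19 kept their call and direction under every alternative run, and Krt18 under all but the test against a fold change of 2 (-1.49, adjusted p = 0.0746, edgeR). That test called 3991 of all genes, 1714 higher and 2277 lower, and 1 keratin lower in place of 2. Synm, not called in any setting, turned to 0.20 without scaling beyond library size and to 0.30 with limma and voom, and ranged from -0.93 to 0.29 when a library was left out. With a library left out no ratio could pass, since 3 against 3 or 4 against 2 libraries cannot reach the threshold, with adjusted p from 0.0762 to 0.133 for the 6 that passed. The differences then ranged from 1.78 to 2.53 for Krt8 to Krt18, 6.41 to 6.91 for Krt8 to Vim, 2.54 to 3.05 for Nes to Vim, 5.89 to 7.02 for Synm to Vim, 5.81 to 6.42 for Des to Vim, 3.07 to 3.50 for Plec to Vim and -0.31 to 0.71 for Krt7 to Krt8. Without Plec in the sum, Vim took 92.2% in MEFs and 38.1% in mESCs, Krt18 1.37% and 12.6%, and in mESCs Krt7 took 8.79%, Krt8 3.04%, Krt19 2.95%, Nes 13.4%, Des 17.9% and Synm 2.98%. The mean of Nes in mESCs was 3.66 log2CPM without TMM scaling, and Gfap had -2.49 in MEFs and -2.12 in mESCs with a prior count of 0.5. Genes near 0 that were not called changed sign. Without scaling beyond library size these were Krt5 (0.17), Krt14 (0.28), Krt77 (0.092), Jup (0.080) and Pkp2 (0.25), with voom Krt14 (0.011), Krt15 (-0.0037) and Pkp2 (0.14), with DESeq2's size factors (0.019) or its own test (0.020) Krt14, and with no filter or a stricter filter Krt15 (-0.028 and -0.017). With a library left out, Krt10 ranged from -0.022 to 0.11, Krt14 from -0.10 to 0.084, Krt15 from -0.15 to 0.078, Krt79 from -0.056 to 0.92, Ppl from -0.082 to 0.26, Pkp1 from -0.63 to 0.42 and Pkp2 from -0.26 to 0.32. No paired analysis was possible because no source ties a number in a column name to a sample title. Depth limits Gfap, Synm and Krt8, which had at most 72 counts in any library. The stricter filter of 10 counts gave no value for Synm, nor did leaving out the MEF library of 9176467 counts.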
